A study of Mus musculus with 6 samples.

Results

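The genes described here are Hba-a1 and Hba-a2, which encode the alpha chain of adult mouse haemoglobin. Every probe whose single annotated symbol is one of these was taken, which gave 12 probes of Hba-a1 and 4 of Hba-a2, or 16 of 16896 probes on 2 kinds of array. All 12 Hba-a1 probes and 3 of the Hba-a2 probes lay on array B, and 1 Hba-a2 probe lay on array A. No probe carried an alpha globin symbol together with another symbol. With 12 probes, Hba-a1 had more probes than any other gene on the arrays, where the next most had 7.

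Total RNA came from the livers of 3 male mice, with 1 mouse in each group. The calorie-restricted mouse was 177 days old. Of the other two mice, both fed ad libitum, the labels give an age of 174 days to one and of 17 days to the other, and strain and genotype are not given in the sources used here. Each liver was measured on arrays A and B. As no group had a second mouse, the spread between animals is unknown and no test was made. The number of arrays limits the precision of every value.

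Alpha globin chains pair with beta globin chains and carry haem, the iron-containing group that binds oxygen. Their transcripts are made in developing red cells and persist in young circulating red cells, so RNA from a liver that still holds blood contains them. The mouse liver is itself a site of red cell formation before birth, and the activity declines after it. In bulk tissue, fewer red cells and less globin RNA per cell cannot be told apart.

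The adult alpha globin genes are near-identical copies, so a probe for either may bind the transcript of the other. Probe sequences were not compared, so that a probe detects alpha globin RNA rests on its annotation alone, also for the dim probes. The start regions of both genes are shown here, and most of each window lies before the transcript. The sequences are those of RefSeq for build GRCm38.p6, each from 250 bases before to 50 bases after the transcription start, 5′ to 3′ on the plus strand. Hba-a1 lies at chr11:32283422-32283721 and Hba-a2 at chr11:32296242-32296541. Capitals mark matches to 4 short motifs that were searched on both strands.
Hba-a1: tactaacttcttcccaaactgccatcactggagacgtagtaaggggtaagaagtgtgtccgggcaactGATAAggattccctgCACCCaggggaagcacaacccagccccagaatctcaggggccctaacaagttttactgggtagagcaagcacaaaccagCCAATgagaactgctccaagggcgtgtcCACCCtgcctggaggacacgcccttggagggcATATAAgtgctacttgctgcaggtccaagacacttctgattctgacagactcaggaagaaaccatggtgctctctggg
Hba-a2: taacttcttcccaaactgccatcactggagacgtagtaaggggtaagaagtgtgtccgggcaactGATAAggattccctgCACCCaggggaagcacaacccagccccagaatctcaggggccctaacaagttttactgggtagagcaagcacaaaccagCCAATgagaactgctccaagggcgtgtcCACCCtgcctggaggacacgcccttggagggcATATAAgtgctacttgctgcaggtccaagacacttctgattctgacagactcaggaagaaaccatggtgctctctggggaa

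Laid over each other with an offset of 3 bases, the 2 windows shared 297 bases, and 297 of these 297 were identical. The last stretch of each window belongs to the transcript, and because of the offset the annotated starts lie 3 bases apart in this shared sequence. Hba-x, the embryonic zeta globin gene beside them, matched Hba-a1 at 28.5% of 298 bases in the best ungapped overlap. Both adult windows held GATAA, the core that GATA factors recognise, at 1 place, whereas 25.4% of all 32851 such mouse windows hold it. CACCC, a core recognised by Krüppel-like factors, occurred at 2 places in each (57.5% of all windows hold it). CCAAT occurred at 1 place in each (37.4% of all windows). The form ATATAA of the TATA box occurred at 1 place in each (9.82% of all windows). No motif match overlapped another. These matches describe the letters only, and the arrays did not measure binding.

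Deposited intensities were read as linear, in arbitrary units, and the arrays differed in overall brightness. The median spot of array B read 333 in the calorie-restricted liver, 60.8 in the 174-day liver and 403 in the 17-day liver. The 174-day arrays were thus the dimmest, also on array A, where the medians were 375, 35.8 and 364. Intensities are therefore compared between mice only after quantile normalization, which gives the 3 arrays of a kind the same distribution. The label of liver tissue was set beside 7 measured hepatocyte genes. Alb, the albumin gene, lay at the 99.99th, 99.87th and 99.92nd percentile of array A spots in the calorie-restricted, the 174-day and the 17-day mouse, and Apoa1, an apolipoprotein gene, at the 99.3rd, 99.3rd and 99.2nd. Fga, a fibrinogen chain gene, was lower, at the 62.7th, 67.0th and 68.8th, and percentiles of different probes do not rank transcripts.

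Hba-a1 probes had middling spot brightness in all 3 livers. The median Hba-a1 probe lay at the 51.6th percentile of array B in the calorie-restricted liver, the 56.5th in the 174-day liver and the 57.2nd in the 17-day liver. Individual probes ranged over percentiles of 24.3 to 71.9, 38.3 to 73.0 and 31.0 to 72.7 in the same mice. Spot brightness depends on the probe as well as on the transcript, so these percentiles are not transcript levels. Each of the 16 probes was above the floor used for dim spots in all 3 mice, and 0 of them held the repeated value of exactly 10.

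The 4 probes with the lowest mean brightness were 12615, 12571, 16513 and 10966, each named by its spot number. Probe 12615 read 139 in the calorie-restricted liver, 40.3 in the 174-day liver and 214.5 in the 17-day liver. Probe 12571 read 158 in the calorie-restricted liver, 45.6 in the 174-day liver and 229 in the 17-day liver. Probe 16513 read 154, 46.5 and 269 in the same order of livers. After normalization these probes shared an order, with the calorie-restricted mouse lowest and the 174-day mouse highest. Probe 10966 had that order too and, of all 12, the widest range between its lowest and highest mouse, with intensities of 154 in the calorie-restricted liver, 53.3 in the 174-day liver and 256 in the 17-day liver. The normalized log2 values of probe 10966 were 6.53, 7.47 and 6.99 in the same order of livers.

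In the middle of the brightness range, probe 12527 read 252 in the calorie-restricted liver, 77.5 in the 174-day liver and 369 in the 17-day liver. Probe 12506 read 339, 73.8 and 445 in these mice. Both kept the order of the dimmer probes, although the gaps of probe 12506 were small, with normalized log2 values of 7.68, 7.91 and 7.80. Probe 11821 read 358 in the calorie-restricted liver, 77.4 in the 174-day liver and 603 in the 17-day liver. In this probe the 17-day mouse was the highest, at a normalized log2 value of 8.25 against 7.77 in the calorie-restricted and 7.98 in the 174-day mouse.

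Among the brighter probes, 12176 read 489 in the calorie-restricted liver, 105 in the 174-day liver and 696 in the 17-day liver. Probe 15890 read 505, 97.8 and 751, and probe 12725 read 503, 112 and 820.3, in the same order of livers. The 17-day mouse was the highest in these 3 probes after normalization. Probe 12659 read 548 in the calorie-restricted liver, 165 in the 174-day liver and 831 in the 17-day liver. After normalization it was highest in the 174-day mouse, unlike the other 4 of these 5 probes. The brightest, 12681, read 738 in the calorie-restricted liver, 142 in the 174-day liver and 958 in the 17-day liver. Its normalized log2 values of 8.89, 8.76 and 8.94 lay closer together than those of any other Hba-a1 probe.

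Over the 12 Hba-a1 probes, the calorie-restricted mouse was lowest in 10 and highest in 0. The 174-day mouse was highest in 7 and lowest in 2, and the 17-day mouse was highest in 5 and lowest in 0. These counts have no share of all array B probes beside them, and many of the 12 probes had spot numbers close to each other. The probes differed from each other more than the mice did. The mean normalized value had an SD of 0.77 log2 between probes, while the SD between the 3 mice within a probe had a median of 0.25 log2 and ran from 0.09 to 0.47.

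The Hba-a2 probes differed widely in brightness. Probe 11536 read 3471 in the calorie-restricted liver, 1095 in the 174-day liver and 5211 in the 17-day liver, at percentiles of 96.5, 95.7 and 95.9 of array B. It was the 1 alpha globin probe in the top 5% of its array in every mouse. Its normalized log2 values of 11.52, 11.33 and 11.38 put the calorie-restricted mouse highest and the other two close together. With each array centred on its median instead, the differences of this bright probe turned, to -0.79 for the calorie-restricted against the 174-day mouse, 0.48 for the 174-day against the 17-day mouse and -0.31 for the calorie-restricted against the 17-day mouse.

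The other two array B probes of Hba-a2 were dim. Probe 10328 read 175 in the calorie-restricted liver, 45.8 in the 174-day liver and 257 in the 17-day liver, and probe 10504 read 257, 57.25 and 329.8. Both put the 174-day mouse highest and the calorie-restricted mouse lowest after normalization, as 7 of the Hba-a1 probes did. Probe 496, on array A, read 476 in the calorie-restricted liver, 41.55 in the 174-day liver and 348 in the 17-day liver. Unlike these, it had the calorie-restricted mouse highest (7.73), before the 174-day mouse (7.62) and the 17-day mouse (7.33).

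The diet comparison set the calorie-restricted mouse against the 174-day ad libitum mouse and asks how liver RNA differed with food intake. Hba-a1 was lower in the calorie-restricted mouse in 10 of 12 probes, where 48.9% of all array B probes were lower (60.7% when each array was centred on its median instead). The median difference was -0.37 log2, or 0.772-fold, with an SD of 0.36 over the probes and a range from -0.95 (probe 10966) to 0.13 (probe 12681). The 12 probes are annotated to the same gene and measured RNA from the same 2 livers, so their SD describes probes and not animals. Of all 7151 genes with a value, 26.4% lay lower than Hba-a1. Hba-a2 had a median of -0.09 over its 4 probes, which ran from -0.54 (probe 10328) to 0.19 (probe 11536), with 2 below 0 and 2 above. This median was -0.40 with median centring, -0.29 on array B alone and 0.15 over its 2 probes above median brightness, so its sign depended on the scaling and the probes. None of the 16 probes was at least 2-fold apart, against 9.31% of all probes on both arrays. At 1.5-fold, 5 of the 16 were apart, and 32.8% of all probes were, so the alpha globin share was near that of the arrays.

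The age comparison set the 174-day ad libitum mouse against the 17-day one. Hba-a1 probes disagreed on the direction, with 7 above 0 and 5 below, while 48.9% of array B probes were below 0. Their median was 0.17 log2 with an SD of 0.31, from -0.28 in probe 15890 to 0.49 in probe 10966. The median of Hba-a2 was 0.24, with 3 probes at 0.21 to 0.29 and probe 11536 at -0.06. Of all genes, 30.3% lay higher than Hba-a1 and 24.3% higher than Hba-a2. None of the 16 probes was at least 2-fold apart, and 3.97% of all probes were. At 1.5-fold, 0 of the 16 were apart against 16.9% of all probes.

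The third comparison set the calorie-restricted mouse against the 17-day one, which differ in both diet and age. The calorie-restricted mouse was lower in 12 of 12 Hba-a1 probes. Among all array B probes 48.9% were lower, or 59.9% with median centring. The median was -0.28 log2, or 0.822-fold, with an SD of 0.15 and a range from -0.52 (probe 16513) to -0.06 (probe 12681). Every probe pointed the same way, and 24.2% of all genes lay lower than Hba-a1 in this comparison. The direction of Hba-a2 was not settled. Its probe 10328 was at -0.27 and 10504 at -0.08, but probe 11536 was at 0.14 and the array A probe 496 at 0.40, giving a median of 0.03. The median was -0.18 with median centring, -0.15 with centring on the 75th percentile, -0.13 after a correction for spot position, -0.09 minus neighbouring spots and -0.08 on array B alone. None of the 16 was at least 2-fold apart, where 1.88% of all probes were, and 0 were 1.5-fold apart, where 15.6% of all probes were. This comparison shares the calorie-restricted mouse with the diet comparison and the 17-day mouse with the age comparison. The diet and age comparisons share the older ad libitum mouse, which enters them with opposite sign. The 3 sets of values are therefore not independent of each other.

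Probe differences of Hba-a1 were less scattered than those of most genes with many probes. Besides Hba-a1, 31 genes had at least 5 probes. In the calorie-restricted against the 17-day mouse, 27 of them had a larger SD over probes than Hba-a1 and 4 a smaller one, with a median SD of 0.34. Of these 31 genes, 3 had every probe below 0 in that comparison and 0 had every probe above. For the diet comparison 22 of the 31 had a larger SD, and for the age comparison 20 did. All 12 Hba-a1 probes lay on array B, many with spot numbers close to each other. Probes of the other genes were pooled over both arrays. The part of spot position in the SD of Hba-a1 was not tested. Actb, the cytoplasmic actin gene with 7 probes, had a median of -0.45 for diet and -0.37 in the third comparison, each further below 0 than that of Hba-a1.

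The size of the difference went with the brightness of the probe. The 5 Hba-a1 probes at or below the median brightness of array B were at -0.95 to -0.70 log2 in the calorie-restricted against the 174-day mouse, with a median of -0.74. The 7 brighter ones were at -0.52 to 0.13, with a median of -0.16. In the age comparison the 5 dimmer probes were all higher in the 174-day mouse, with a median of 0.44. The 7 brighter probes had a median of -0.18 there, with 5 below 0. The direction of Hba-a1 in the age comparison thus depended on which probes were kept. It also depended on the scaling, as the median of all 12 probes was -0.02 with each array centred on its 75th percentile.

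The calorie-restricted and the 17-day mouse differed in the same direction at either brightness. The dimmer 5 probes had a median of -0.36 log2 in that comparison and the brighter 7 a median of -0.26. Across the 12 probes, which share the same arrays, mean brightness correlated with the diet difference at a Pearson r of 0.82. The r was -0.75 with the age difference and 0.45 with the third difference. The older ad libitum mouse enters the diet and age differences with opposite sign, so their opposite correlations are not separate results. Under 6 other scalings and filters the dimmer probes had diet medians of -0.74 to -0.50 and the brighter ones -0.24 to -0.02. Their age medians were 0.21 to 0.45 for the dimmer and -0.21 to -0.03 for the brighter probes. Whether spots of like brightness shared this gap was not tested, since quantile normalization itself holds the medians of whole brightness classes near 0.

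Many Hba-a1 probes had spot numbers close to each other. Spot differences between mice on array B were most alike at a distance of 22 spot numbers, with a correlation over all spots of 0.50 in the diet comparison, 0.36 in the age comparison and 0.53 in the third. They were nearly as alike at a distance of 44 and at the same place in the next block of spots. Dividing spot numbers by 22, 6 of the 12 Hba-a1 probes had the remainder 9 and 3 the remainder 10. The probes 12527, 12571, 12615, 12659, 12681 and 12725 are those with the remainder 9, and they lie within 2 neighbouring blocks. The sources used here do not give the layout of the spots.

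The neighbours of each probe were the spots 22 and 44 numbers and 1 block before and after it, with globin spots left out. In their medians they leaned the same way as Hba-a1. Across the 12 probes, own and neighbour values correlated at a Pearson r of 0.11 for diet, 0.61 for age and 0.11 in the third comparison. In the calorie-restricted against the 174-day mouse, the neighbour medians of the 12 probes had a median of -0.43 log2, beside -0.37 for the probes themselves. For 3 of the dimmest probes in the column of remainder 9, own and neighbour values were close, at -0.73 and -0.60 (probe 12615), -0.70 and -0.62 (probe 12571), and -0.74 and -0.48 (probe 12527). Probe 10966 differed from its neighbours, at -0.95 against 0.04, and so did probe 12681, at 0.13 against -0.51.

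Taking each probe minus its neighbours, the Hba-a1 median was -0.11 log2 for diet, 0.03 for age and -0.14 for the calorie-restricted against the 17-day mouse. In the third of these 10 of 12 probes stayed below 0, the exceptions being 12176 (0.04) and 12681 (0.25). Neighbour medians had a median of 0.18 in the age comparison, beside 0.17 for Hba-a1, and of -0.22 in the third, beside -0.28. Another correction took out the median of each block and of each place within a block. With it, the Hba-a1 median was -0.40 for diet, 0.10 for age and -0.30 for the third comparison. The part that spot position has in the Hba-a1 differences was not tested.

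Of 10 other globin genes looked for, Hba-x and Hbb-y, the embryonic beta-like globin gene, had a probe, and no probe carried an adult beta globin as its single symbol. Hba-x had 1 dim probe, which read 86.95 in the calorie-restricted liver, 32.5 in the 174-day liver and 138 in the 17-day liver. It had the order of the dim alpha globin probes, with differences of -1.05 for diet, 0.68 for age and -0.37 for the third comparison. Its neighbours on the array were at -0.71, 0.30 and -0.24. The 4 Hbb-y probes had medians nearer to 0, at -0.07 for diet, -0.04 for age and -0.11 for the calorie-restricted against the 17-day mouse. Over both genes the medians were -0.56, 0.32 and -0.24. Hba-x in the diet comparison was the 1 value at least 2-fold apart, where 7.44% of all genes were.

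Most haem synthesis genes lay above 0 in the diet comparison and below 0 in the age comparison. The older ad libitum mouse enters these comparisons with opposite sign, so the opposite directions are not separate results. The list of 10, which also held the alpha globin chaperone gene Ahsp, had 8 measured genes. In the diet comparison 6 of 8 were above 0 and 2 below with a median of 0.23 log2, while 50.9% of all 7151 genes were below 0 and their median was -0.01. The correction for block and place brought the list's diet median to 0.02. Alas1, the housekeeping first enzyme of the pathway, was at 0.63 and Cpox, a later enzyme, at 0.49. The red cell form Alas2, a dim spot, was at -0.22. In the age comparison 7 of 8 were below 0 with a median of -0.21, against 50.3% of all genes and a median of -0.002. The lowest was Cpox at -0.63, and the block and place correction gave a list median of -0.10. For the calorie-restricted against the 17-day mouse 5 of 8 were below 0, where 52.9% of all genes were, and the list median was -0.06 (0.05 after that correction), with Alas2 at -0.53. None of the 8 was 2-fold apart in any comparison, where 7.44% of genes were for diet, 3.22% for age and 1.13% in the third.

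Red cell lineage genes were mixed. Of 30 listed, 9 were measured, and 5 were below 0 and 4 above in each of the 3 comparisons. Of all 7151 genes, 50.9% were below 0 for diet, 50.3% for age and 52.9% in the third comparison. The medians of the 9 genes were -0.09 for diet, -0.06 for age and -0.23 for the calorie-restricted against the 17-day mouse. The last of these was 0.001 after the correction for block and place. In the third comparison Car1, a red cell carbonic anhydrase, was at -0.67 from a spot not above median brightness. Prdx2, an abundant red cell peroxiredoxin, was at -0.32. Car2, of the same list, had a dim probe at -1.07 and a bright one at 0.36. Gata1, the transcription factor of the lineage, was at 0.40 from a dim spot, and Slc4a1, the anion exchanger of the red cell membrane, at 0.08. The Slc4a1 probe read 364 in the calorie-restricted liver, 59.2 in the 174-day liver and 422 in the 17-day liver, which is near the median of its array in each. None of the 9 was 2-fold apart in any comparison, where 7.44% of all genes were for diet, 3.22% for age and 1.13% in the third.

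Genes that handle haem and iron had 8 of 15 measured, with medians of 0.15 for diet, -0.001 for age and 0.10 for the third comparison. With each array centred on its median instead, these list medians were -0.05, 0.17 and 0.04. Hmox1, which breaks down haem, was the 1 gene of this list 2-fold apart, at -1.02 in the calorie-restricted against the 174-day mouse. In that comparison 7.44% of all genes were 2-fold apart. Ftl1, a ferritin subunit with 5 probes, was at 0.24 for diet and 0.03 for age. Tfrc, the transferrin receptor that red cell precursors carry in large number, had 3 probes that ran from 0.23 to 1.58 for diet and from -0.98 to -0.18 for age. Its bright probe had the smallest differences of these, 0.23 and -0.18, and a dim one was below the floor in the 174-day mouse.

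Markers of other cells showed these values beside the globins. Leukocyte and platelet genes (5 of 20 measured) had medians of 0.05 for diet, -0.04 for age and -0.01 for the third comparison. Probe percentiles in this list ran from 2.90 (S100a9, a neutrophil gene, below the floor in the calorie-restricted and the 17-day mouse) to 96.3 (Ltf, lactoferrin), both in the calorie-restricted mouse. Kupffer cell genes (3 of 11 measured, the C1q subunits) had medians of 0.10, -0.16 and -0.12. Hepatocyte genes (7 of 22 measured) had medians of -0.005, -0.29 and 0.05. Alb, at 1.18 for diet, was the 1 gene of these 3 lists that was 2-fold apart, where 7.44% of all genes were. Its 1 probe lay at the 99.99th percentile of array A in the calorie-restricted and the 99.87th in the 174-day mouse. The intensities were 29199 and 3089, where the array medians were 375 and 35.8. The difference of this very bright spot under other scalings is not given here. Under the other scalings and filters the medians of the red cell, leukocyte and platelet, Kupffer cell and hepatocyte lists took both signs in the diet and in the age comparison. In the third comparison the red cell, Kupffer cell and hepatocyte medians took both signs too. The part of the cell makeup in the globin values was not tested.

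A list of 7 genes meant to flank the alpha globin locus had 2 measured members, Luc7l and Polr3k, and RefSeq places both on other mouse chromosomes. Their medians were 0.01 for diet, -0.12 for age and -0.11 in the third comparison. The nearest measured genes on chromosome 11, chosen after the values were seen, were Cpeb4, Asb3 and Erlec1 before Hba-a1 and Stk10, Fbxw11 and Kcnmb1 after Hba-a2, each at least 7 annotated genes away. Their diet differences were 0.35, -1.06, -0.17, -0.56, 0.01 and 0.45 log2, with no shared direction.

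The genes whose 3-mouse pattern was nearest to that of Hba-a1 were sought among 555 genes with at least 2 probes above median brightness. Likeness was the Euclidean distance between median log2 deviations from the 3-mouse mean. Hba-a1, with all 12 probes whatever their brightness, deviated by -0.25 in the calorie-restricted liver, 0.18 in the 174-day liver and 0.05 in the 17-day liver. The nearest were the helicase gene Eif4a1 (distance 0.009), Fam193a (0.022), Ssbp3 (0.029), Arhgap20 (0.040) and Rgs12 (0.046). Over its 7 brighter probes alone, Hba-a1 deviated by -0.12, -0.02 and 0.09 in the same order of livers. The 5 nearest genes were then Myo1c, Cxadr, Tbc1d14, Arcn1 and Rasa1, and 0 of them were among the first 5, so the names depend on the probes used. In median spot brightness Hba-a1 ranked 4494th from the dimmest of 7151 genes, next to Ezr, Pef1, Atp6v0d1, Rbm7 and Hexdc, and Hba-a2 ranked 3692nd.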

How the data were processed

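Liver RNA of 3 mice was measured on arrays A and B, with 8448 spots each. The deposited intensity values were read as linear spot intensity from their range, and the steps by which the authors made them are not given in the sources used here. Probes were named through GEO's platform annotation, where 9663 probes had 1 symbol, 436 several and 6797 none. Every column of values was tied to a mouse by its labels, with 0 left over.

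Values under the 5th percentile of an array were set to that percentile. The log2 values of the 3 A arrays, and apart from them of the 3 B arrays, were then quantile-normalized. A gene took the median of all its probes. Apart means 2-fold or more. With 1 mouse per group there was no test. The members, the gene lists (other globins, haem synthesis, haem and iron handling, flanking genes, red cells, leukocytes and platelets, Kupffer cells, hepatocytes) and the settings were chosen with earlier results of these data known. Named were all alpha globin probes, members of the lists, and the 5 genes nearest to Hba-a1 in pattern and in brightness rank. Neighbour spots, the column of remainder 9, the share of Hba-a1 probes below 0 the nearest chromosome 11 genes, the gene lists and brightness groups under other scalings, and likeness over brighter probes were added after the data were seen. The steps were tested on simulated data with differences planted in the calorie-restricted mouse. The simulated noise was independent between spots, so that test does not cover patterns of spot position. The tools were pandas 2.3.3, numpy 2.4.6, statsmodels 0.14.6 and scipy 1.17.1 under Python 3.11.15.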

Additional observations from a re-analysis of the deposited data

How the results depend on the processing

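A median difference counted as moved when it shifted by more than the SD over the gene's probes. A median could thus change sign without counting as moved. The Hba-a1 medians stayed within that SD for diet in 11 of 12 alternatives, for the calorie-restricted against the 17-day mouse in 11 of 12 and for age in 10 of 12. Within that SD, the age median of Hba-a1 turned to -0.02 with centring on the 75th percentile, from 0.17. With the brightest probe alone (12681), Hba-a1 was at 0.13 for diet, -0.18 for age and -0.056 in the third comparison. With the 7 probes above the median brightness, it was at -0.18 for age, and 71.4% of Hba-a1 probes were then below 0 in place of 41.7%. For Hba-a2 the age median was 0.065 after the block and place correction, 0.015 minus neighbour spots, and -0.059 both with its brightest probe and above the 75th percentile of brightness. Its diet median ran from -0.40 to 0.19 and that for the calorie-restricted against the 17-day mouse from -0.18 to 0.40, so neither sign was stable. On array A alone, Hba-a2 was at 0.40 for the calorie-restricted against the 17-day mouse. The count of alpha globin probes apart for diet was 5 of 16 at 1.5-fold, where 32.8% of all probes were apart, in place of 0 at 2-fold. The Hba-a1 share below 0 was at least 83.3% in all 9 alternatives that gave it for the calorie-restricted against the 17-day mouse, and at least 66.7% for diet. Centring each array on its median moved the diet median of all array B probes to -0.14, with 60.7% below 0, and Hba-a1 to -0.48. In the third comparison 59.9% of array B probes were then below 0, and Hba-a1 was at -0.31. Without the 6 probes of remainder 9, Hba-a1 was at -0.22 for diet, 0.01 for age and -0.36 in the third comparison. No Hba-a1 probe lay on array A or above the 75th percentile of brightness, so those settings gave no value for it. Where not stated, the cause of a shift was not tested. No paired analysis was possible because each group held 1 mouse.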
